A study of Mus musculus with 65 samples.

Results

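Deletions of 20 bp or more are the long tail of the repair products left at a Cas9 cut, and they are described here at 20 cut sites in mouse hepatocytes. They were chosen by the deposited net length of each read alone, and 4733 such reads were found in 43 libraries made with an sgRNA, or 1.53% of the 308971 indel reads of those libraries. They formed 869 alleles, counted within each library, where an allele is a given reach to the left and right of the cut with a given overlap or filler at the junction. A further amplicon, called Tfam-sg2-3 after its EV label, which names the guides sg2 and sg3, is given apart at the end. The label of its KO library names sg2 alone. Of the 15882 indel reads of that KO library, 14880 were such deletions.

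The study sequenced amplicons around each cut site from liver DNA labelled as hepatocyte. The mice carried the genotype Rosa-LSL-Cas9-EGFP, in which Cas9 and EGFP stand behind a stop that Cre removes, and all of them received an adeno-associated virus (AAV) into the retro-orbital sinus. Groups differed in the cargo and in the week post injection (wpi). The arm labelled KO received sgRNAs against EGFP, Hnf4a, Kif11, Polg, Polg2, Tfam or Fah and holds 1 library at 1 wpi, 17 at 2 wpi, 3 at 3 wpi and 3 at 8 wpi. The arm labelled PTG, a name the labels do not spell out, received sgRNAs against Lats1 and Lats2 and holds 4 libraries each at 2, 3 and 6 wpi. The arm labelled coinjection covers the same 4 Lats sites with 4 libraries each at 2 and 3 wpi. The EV arm received the virus with an empty sgRNA and holds 21 libraries at 2 wpi, 1 for each amplicon. The labels do not say how Cre was supplied, which amplicons came from the same animal or how many animals a library stands for. Amplicon DNA shows no gene expression, so the labelled cell type could not be checked. The positions of the cuts within the genes are not given.

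Cas9 cuts both strands of DNA at the place its guide RNA pairs with. Cells mostly rejoin such ends by non-homologous end joining, which leaves small insertions and deletions. When the ends are trimmed further, short stretches of matching sequence on either side can pair and be joined, which removes 1 copy and everything between the copies; this is called microhomology-mediated end joining. A junction can also carry filler, a few bases that match neither side, as polymerase theta and other polymerases are known to add. Hepatocytes are mostly non-dividing cells of the liver, many of them polyploid.

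Each combination of arm, site and time was 1 library of 2290 to 27974 reads, so no spread between animals could be had. The reads carry no molecular identifiers, so the exact (Clopper-Pearson) 95% intervals for shares and the Newcombe intervals for differences cover counting error only, and each Fisher's exact test compares a pair of libraries, not a pair of conditions. Read length was taken as the read position at which the right match ends. No read was shorter than 237 bp by this measure, which limits the deletions that could be seen. The room for a deletion, taken as the most frequent length of unedited reads minus 237 bp, ran from 23 to 100 bp in the sgRNA libraries of the 20 sites. A deletion of 155 bp exceeded the room of its library, so room is no hard limit. Room was 23 bp at Hnf4a-sg2 and Polg2-sg3 and 43 bp at Polg2-sg1, so few longer deletions could be seen there. It was 50 bp or more at the other 17 sites.

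Long deletions were found with the sgRNA and hardly at all without it. The median share of long deletions among indel reads at 2 wpi was 1.57% over 20 sites (coinjection at Lats sites, KO elsewhere), with 5 sites under 1%, 9 between 1 and 2% and 6 at 2% or more. Kif11-sg3, in the gene of a kinesin motor that separates spindle poles (chromosome 19, 37376382 to 37421863, mm10), had the highest share, 113 of 2671 indel reads or 4.23% (3.50 to 5.06). Hnf4a-sg1, in the gene of a transcription factor that maintains hepatocyte identity (chromosome 2, 163506811 to 163572907), followed with 334 of 9426 or 3.54% (3.18 to 3.94). The intervals of these sites overlapped, and neither was told from the other.

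The 3 sites with the least room had the 3 lowest shares. Polg2-sg3 (chromosome 11, 106768204 to 106779537, the gene of the accessory subunit that helps the polymerase of mitochondrial DNA hold on to its template) had 4 such reads among 13091 indel reads, or 0.0306% (0.00833 to 0.0782), all of 1 allele. Hnf4a-sg2 had 33 of 11002 or 0.300% (0.207 to 0.421) and Polg2-sg1 had 54 of 12772 or 0.423% (0.318 to 0.551). Tfam-sg1, in the gene of a protein that packages mitochondrial DNA (chromosome 10, 71225468 to 71238328), had 14 of 2811 or 0.498% (0.273 to 0.834) although its reads left room for 99 bp. Guides to the same gene could differ several fold. Beside the values given, Hnf4a-sg3 had 2.17% (1.92 to 2.44), and Kif11-sg1 and Kif11-sg2 had 1.08% (0.934 to 1.24) and 1.88% (1.53 to 2.29). The 3 Polg guides had 1.21% (1.03 to 1.42), 2.21% (1.84 to 2.64) and 0.672% (0.546 to 0.817), intervals that do not overlap. The 2 Fah guides, with 1.04% (0.896 to 1.21) and 1.31% (1.07 to 1.58), overlapped. Of the alleles, 231 of 869 were single reads, which held 4.88% of the reads. The median share was 0.300% over the 3 sites with room under 50 bp and 1.76% over the other 17.

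Against the empty vector, all reads are the common denominator, because EV libraries hold few indel reads. At EGFP-sg1, in the reporter transgene itself, 218 of 12715 sgRNA reads carried a long deletion, against 0 of 8370 EV reads. At Hnf4a-sg3 there were 265 of 13039 sgRNA reads, against 0 of 16587 EV reads. Over 19 EV libraries no such read was found, which allows a share of up to 0.0160% to 0.131% of reads depending on the library. The EV library of Lats2-sg1 held 1, a deletion of 25 bp that was also read 74 times in the PTG library of that site at 6 wpi and 20 times in the coinjection library at 3 wpi. The source of that read was not tested. Unedited EV reads were 1 or 2 bp longer than unedited sgRNA reads of the same amplicon, so their room was no smaller.

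**Figure D1:**
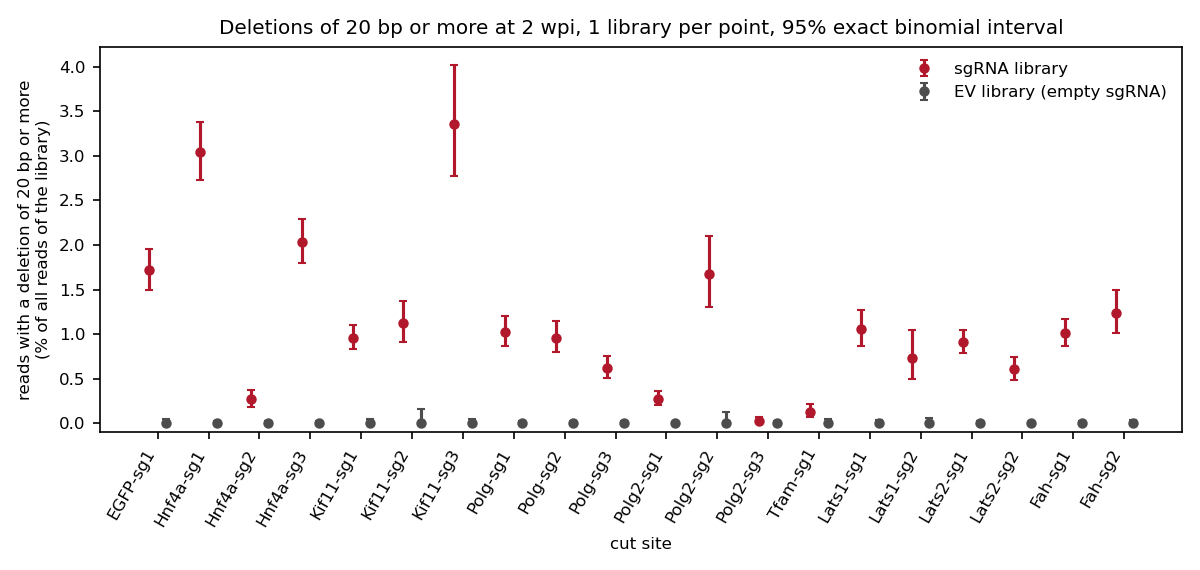
Share of all reads with a deletion of 20 bp or more at 2 wpi, for the sgRNA library (left of each pair, KO or coinjection) and the EV library (right) of 20 cut sites, with exact 95% binomial intervals. Points of the sgRNA libraries run from 0.0291% at Polg2-sg3 to 3.36% at Kif11-sg3, and 19 of 20 EV points lie at 0.

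The sgRNA libraries held more long deletions than the EV libraries at 20 of the 21 amplicons (two-sided Fisher's exact test, Benjamini-Hochberg adjusted over 6 indel classes by 21 amplicons), while 99.2% of all classes and amplicons passed the same test. The exception was Polg2-sg3, with 4 of 13756 sgRNA reads against 0 of 11841 EV reads (Fisher's exact test, adjusted p = 0.129). With sites first averaged by target, sgRNA minus EV came to 1.08 ± 0.581 percentage points (mean ± SD, n = 9 targets). All 9 targets were above 0, and a two-sided exact sign-flip test gave p = 0.00391, which is the smallest value 9 targets can give.

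The lengths, which chose the members and are given without a test, were concentrated near the limit. The quartiles were 24, 29 and 39 bp. Deletions of 20 to 24 bp made up 30.4% of the reads and those of 25 to 29 bp a further 19.6%, against 4.27% at 60 bp or more. Just outside the limit there were 496 reads of 18 bp and 302 of 19 bp, and just inside it 272 of 20 bp and 218 of 21 bp, so the counts pass the limit without a step.

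Sites differed in how far their deletions ran. The median length at 2 wpi was lowest at Hnf4a-sg2, 20 bp, and highest at Polg-sg2, 37 bp, in the gene whose product copies mitochondrial DNA (chromosome 7, 79446231 to 79467911). The longest deletion of a site followed the room that its reads left: it was 22 bp at Hnf4a-sg2 with room for 23, 50 bp at Hnf4a-sg1 with room for 54 and 91 bp at Polg-sg2 with room for 95. Over the 20 sites at 2 wpi the Spearman correlation of room and longest deletion was 0.916, as a description with no test, the points sharing the same read floor. The same correlation was 0.301 for the median length and 0.263 for the share of indel reads.

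**Figure D2:**
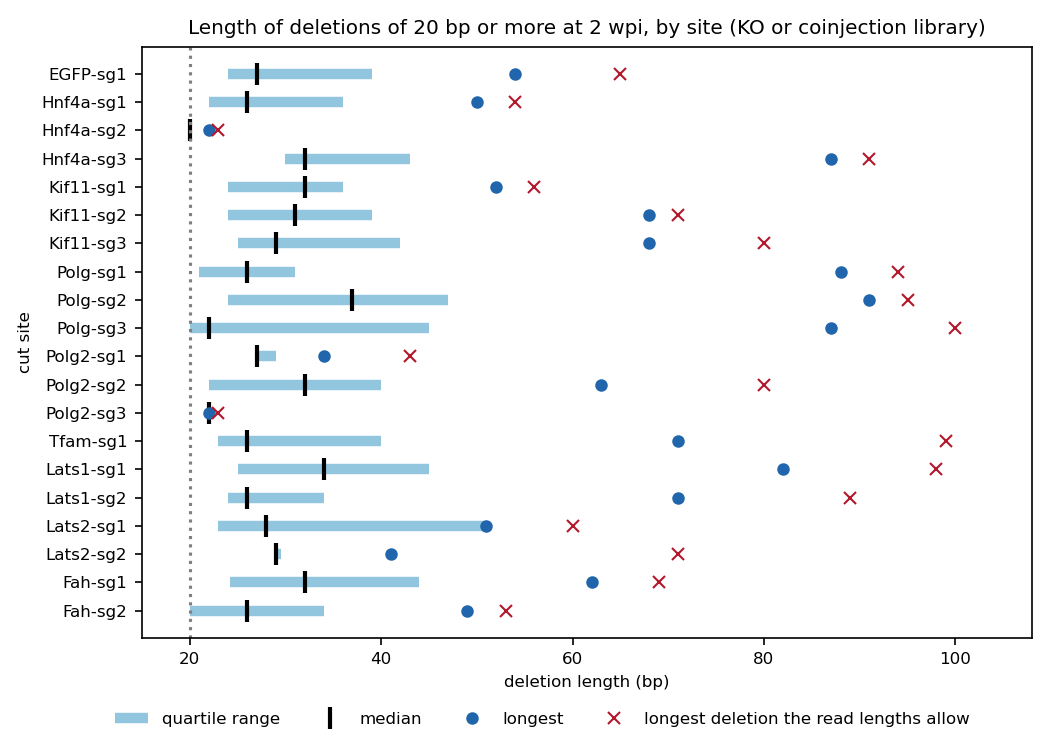
Length in bp of deletions of 20 bp or more at 2 wpi for 20 cut sites (KO, or coinjection at Lats sites): the bar is the quartile range, the tick the median, the dot the longest and the cross the room that the read lengths left. Medians lie between 20 and 37 bp, while the longest deletion lies left of the cross at every site.

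Long deletions mostly removed sequence on both sides of the cut. Among the 4733 reads, 68.6% had lost bases on both sides, 15.5% had none lost on the left and 16.0% had none lost on the right. Of the 68704 reads with a deletion of 2 to 19 bp in the same libraries, 9.56% had lost bases on both sides, 56.3% had none lost on the left and 44.5% none on the right. Bases of an overlap are counted on neither side, so a short deletion can have none lost on either and enter both of these shares. A longer deletion has more room to cross the cut, so this contrast follows in part from the length that chose the members. It also depends on how overlaps are counted, and it was not tested.

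Neither side was favoured over all targets, but single libraries leaned to 1 side. In the libraries at 2 wpi with at least 20 long and 20 short deletion reads (18 sites of 8 targets), the mean left reach minus the mean right reach averaged -0.521 ± 5.82 bp (mean ± SD, n = 8 targets). It was above 0 in 4 of these, and the two-sided exact sign-flip test gave p = 0.805. At Polg2-sg1 the mean reach was 1.69 bp to the left and 25.1 bp to the right, and at Polg-sg3 7.41 bp to the left and 23.5 bp to the right. At Lats2-sg1, in the gene of a kinase of the Hippo pathway (chromosome 14, 57689662 to 57746212), libraries differed. The coinjection library at 2 wpi reached 25.5 bp to the left and 8.27 bp to the right, in 5 alleles. At 3 wpi coinjection reached 12.7 bp left and 16.1 bp right in 17 alleles, and PTG at 6 wpi 11.7 and 16.5 bp in 26. PTG libraries at 2 and 3 wpi held 1 long allele each. With the sgRNA libraries of the site pooled, the means were 15.5 bp left and 14.5 bp right. Some of the leaning values rested on few alleles. At Polg2-sg1, with 54 reads in 9 alleles, each of a pair of alleles held 33.3% of the reads. In the Lats2-sg1 coinjection library at 2 wpi a deletion of 51 bp wholly to the left held 81 of 209 reads.

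**Figure D3:**
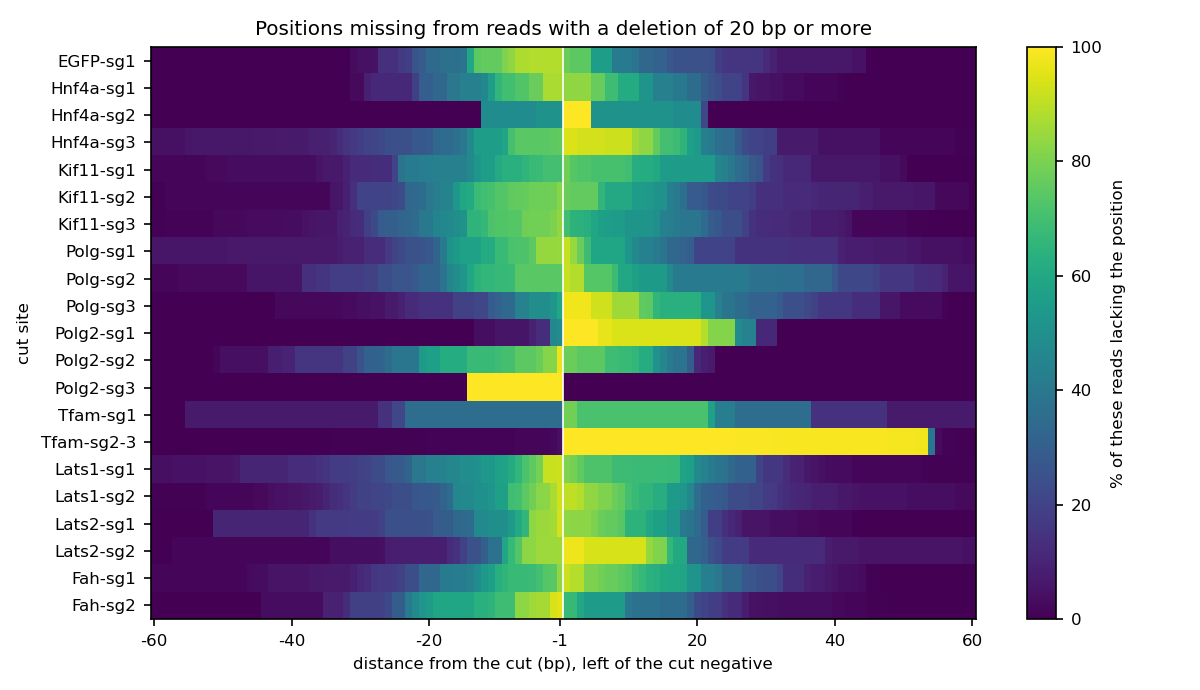
Share of reads with a deletion of 20 bp or more that lack each position, by distance from the cut in bp (left of the cut negative), for 21 amplicons with all sgRNA libraries of a site pooled. The lost positions straddle the cut at most sites, lie mainly on the right at Polg2-sg1 and Polg-sg3, and form 1 block on the right of the cut at Tfam-sg2-3.

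At their junctions, long deletions more often showed microhomology than deletions of 2 to 19 bp taken as a whole. The deposited microhomology length is the overlap of the left and right matches in the read. It was 2 bp or more in 47.3% of the long deletion reads over all sgRNA libraries, against 17.2% of the short ones. Of the long deletion reads, 17.3% had an overlap of 2 bp, 9.19% of 3 bp, 15.3% of 4 to 7 bp and 5.51% of 8 bp or more, while 18.7% had 1 bp and 21.6% had neither overlap nor filler. By allele, 361 of 869 had an overlap of 2 bp or more. The contrast does not begin at the limit: pooled over libraries, the share with such an overlap was 37.8% at 17 bp, 45.4% at 18 bp and 9.60% at 19 bp, and 23.5% at 20 bp, 33.9% at 21 bp and 47.4% at 22 bp.

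Within a library at 2 wpi the share with an overlap of 2 bp or more was higher among long than among short deletions at 13 of 18 sites. By target, long minus short came to 26.4 ± 26.01 percentage points (mean ± SD, n = 8 targets). It was above 0 in 7 of them, and the two-sided exact sign-flip test gave p = 0.0156, where 0.00781 is the smallest value possible. The overlap is part of the deposited length that sorted the reads, and it cannot exceed that length. The shortest deletions can thus hardly carry an overlap of 2 bp or more. The direction of the difference is therefore in part set by the classes, and the test cannot separate that part. The difference was widest at EGFP-sg1, with 86.7% of 218 long deletion reads against 3.96% of 3106 short ones. At Lats2-sg2 in coinjection it was 71.6% of 88 against 7.62% of 630, and at Fah-sg1, in the gene of fumarylacetoacetase, which ends the breakdown of tyrosine (chromosome 7, 84585159 to 84605942), 46.6% of 174 against 1.40% of 3495. With EGFP left out the mean was 18.3 points.

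Other libraries of a site could differ from this in their overlaps. At EGFP-sg1 the share with an overlap of 2 bp or more was 78.8%, 86.7% and 48.7% of long deletion reads at 1, 2 and 3 wpi. At Kif11-sg1 it was 45.9% at 8 wpi against 15.4% at 2 wpi, and at Fah-sg2 65.2% at 3 wpi against 34.0% at 2 wpi. At Lats2-sg1 the coinjection libraries had 44.5% at 3 wpi against 11.96% at 2 wpi, and the PTG library at 6 wpi had 73.4%. These shares rest on 5 to 26 alleles a library at the sites named, and were not tested.

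The 5 sites that ran the other way included those whose short deletions were already rich in overlaps. At Hnf4a-sg2 the share was 51.5% of long against 74.8% of short deletion reads, at Polg-sg3 40.4% against 65.6%, and at Polg2-sg1 48.1% against 55.5%. Polg-sg2 had 17.4% against 26.1% and Lats1-sg2 13.3% of 30 long reads against 14.6%. The share among long deletions therefore spread over 11.96% to 86.7% with a median of 40.5%, and among short ones over 1.40% to 74.8% with a median of 11.6%.

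The deposited length counts the overlap into the deletion. With deletions classed instead by the bases lost on the left plus the right of the cut, which leaves the overlap out, the mean difference was 29.2 points with 8 of 8 targets above 0 (p = 0.00781 by the exact sign-flip test). Deletions with under 2 bases lost then fell outside both classes, among them those whose length was all overlap. Short deletions rich in overlap were thus removed by construction, so these values are no independent check. Some overlaps may not be exact matches. At EGFP-sg1 a deletion of 39 bp with a left reach of 13 bp, read 46 times at 2 wpi, carried an overlap of 19 bp, and among 724 pairs of right end and length without filler 21 appeared with more than 1 overlap length. No bases are in the tables, so this could not be checked; without overlaps of 8 bp or more the mean difference was 24.1 points.

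Filler was present in 12.4% of long deletion reads (588 reads, 122 alleles) and in 16.2% of short ones. Filler lowers the deposited net length, which sorted the reads into long and short. Filler of 1 bp made up 4.84% of long and 13.6% of short deletion reads. Of the long ones, 2.07% carried 10 bp or more, up to 50 bp at Kif11-sg1. That allele reached 32 bp left and 50 bp right for a net length of 32 bp. Whether its 50 bp were inserted could not be checked without bases. Within libraries at 2 wpi, the filler share of long minus short deletions was -8.73 ± 17.96 percentage points (mean ± SD, n = 8 targets). It was above 0 in 2 of these, with p = 0.195 by the two-sided exact sign-flip test. The largest gap was at Lats2-sg2 in coinjection, 1.14% of long against 87.1% of short deletion reads, and without Lats2 the mean was -3.23 points. Polg2-sg1 had the largest gap the other way, 33.3% against 6.02%, where the 33.3% was 1 allele of 18 reads. Without Polg2 the mean was -12.02 points and the exact p = 0.0312. With each allele counted once it was -28.9 points (exact p = 0.00781).

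**Figure D4:**
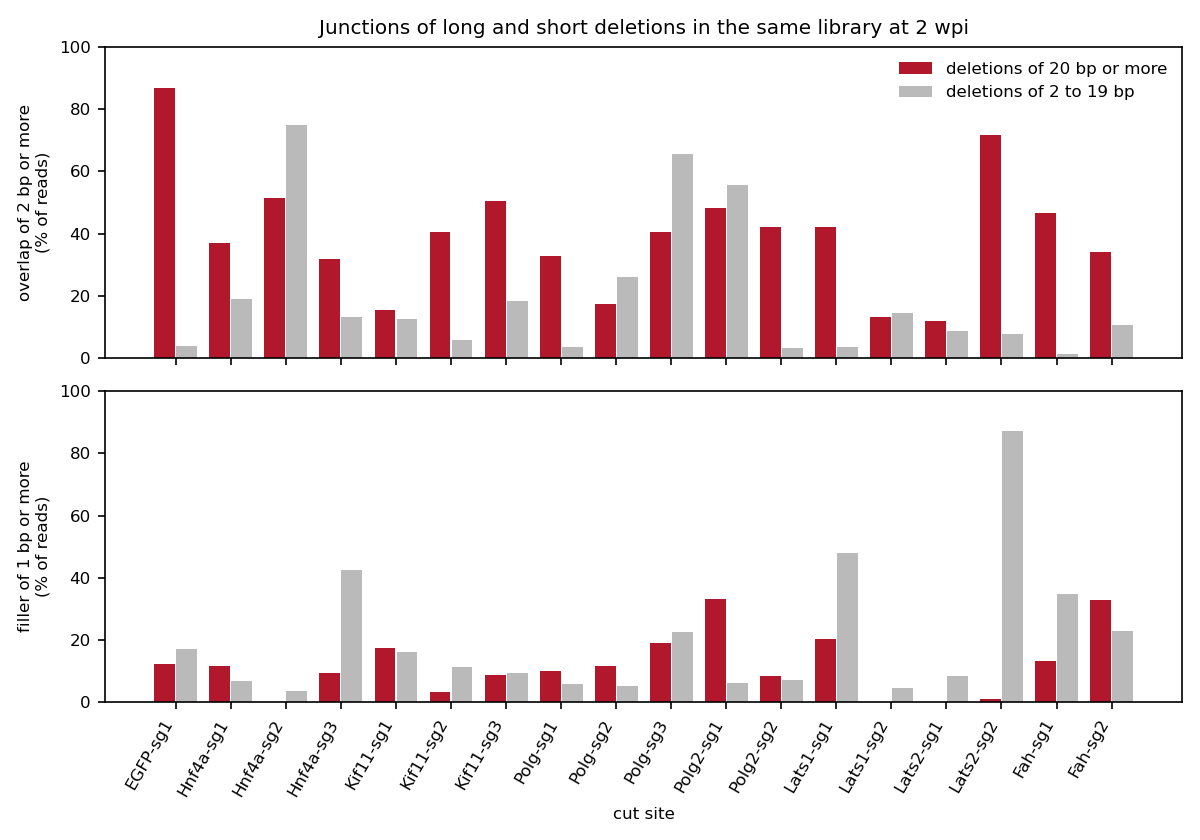
Percent of deletion reads with an overlap of 2 bp or more (top) and with filler of 1 bp or more (bottom) at 18 cut sites, deletions of 20 bp or more left of deletions of 2 to 19 bp of the same library at 2 wpi. The overlap share is higher for long deletions at 13 sites and lower at 5, and the filler share is higher at 7 and lower at 11.

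Most long alleles did not recur from library to library. Between libraries of the same site, a median of 8.97% of long deletion reads belonged to alleles that the other library also held, and 17 of 44 pairs shared none. Of these 17 pairs, 13 held a PTG library of a Lats site with a single long allele. Over the 30 pairs with several long alleles in both libraries the median was 14.4%, and 4 pairs shared none. For deletions of 2 to 19 bp the median was 86.4% over 48 pairs, and every pair shared some. Libraries of these sites held a median of 103 long and 1160 short deletion reads, and the part of this difference in the contrast was not tested. Among alleles with 10 to 99 reads in a library, 25 of 103 long ones and 364 of 502 short ones were read in another sgRNA library of the site, or 24.3% and 72.5%. The leading long allele of a library was read in another library of the site in 15 of 32 libraries (46.9%), and the leading short allele in 33 of 33. No test was made, since pairs of a site share libraries.

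Over the 10 sites with several sgRNA libraries, 66 of 557 distinct long alleles were read in 2 or more libraries. One of them, at Lats1-sg1 in the gene of the other Hippo kinase of the study (chromosome 10, 7681200 to 7716461), was found in 4 of 5 libraries but with 9 reads in all: a deletion of 27 bp reaching 7 bp left and 17 bp right with an overlap of 3 bp. At EGFP-sg1 the deletion of 24 bp that reached 14 bp left and 4 bp right with an overlap of 6 bp was read 2, 20 and 25 times at 1, 2 and 3 wpi. The 7 alleles read in 3 or more libraries each carried an overlap of 1 bp or more. Most long alleles did so: of all 869, counted within each library, 193 had neither overlap nor filler and 122 had filler. The 7 alleles were picked for their recurrence.

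The leading long allele was taken from a site's first sgRNA library in time (coinjection at the Lats sites), and at 14 sites it had 10 reads or more. At Lats2-sg2 it was a deletion of 29 bp reaching 9 bp left and 18 bp right with an overlap of 2 bp, read 20 times in PTG at 6 wpi and 51 and 12 times in coinjection at 2 and 3 wpi, and in neither PTG library at 2 or 3 wpi. At Fah-sg1 it was a deletion of 23 bp reaching 18 bp left and 3 bp right with an overlap of 2 bp, with 9 reads at 3 wpi against 17 at 2 wpi. These were the only alleles found again among the leading alleles of the first library at 8 such sites with several sgRNA libraries. At Kif11-sg3 and Lats1-sg2, left out for having under 10 reads, the leading allele was also read elsewhere. At Kif11-sg3 a deletion of 24 bp had 8 reads at 2 wpi and 8 at 8 wpi. At Lats1-sg2 a deletion of 24 bp had 6 reads in coinjection at 2 wpi and 1 each in coinjection at 3 wpi and PTG at 6 wpi.

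At the other 6 of the 8 sites with a leading allele of 10 reads or more, that allele was read in 1 library and in no other. At EGFP-sg1 a deletion of 42 bp with an overlap of 4 bp was read 10 times at 1 wpi and 0 times at 2 and 3 wpi. At Kif11-sg1 and Kif11-sg2 deletions of 22 and 21 bp, each running from the cut to the right with no overlap, had 0 reads at 8 wpi against 25 and 12 at 2 wpi. At Lats2-sg1 the deletion of 51 bp wholly left of the cut was read 81 times in coinjection at 2 wpi and 0 times in the other 4 sgRNA libraries, among them a coinjection library with 9310 indel reads. The leading alleles of Lats1-sg1 (34 bp) and Fah-sg2 (20 bp with 2 bp of filler) had 12 and 16 reads in their first library and none elsewhere.

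At sites with 1 sgRNA library the leading alleles were of both kinds. Hnf4a-sg1 was led by a deletion of 21 bp wholly left of the cut (30 reads), Hnf4a-sg3 by 1 of 32 bp to the right with an overlap of 1 bp (28 reads) and Polg-sg3 by 1 of 20 bp wholly to the right (11 reads). Hnf4a-sg2 was led by a deletion of 20 bp reaching 12 bp left and 4 bp right with an overlap of 4 bp (16 reads), and Polg-sg1 by 1 of 23 bp with an overlap of 2 bp (13 reads). At Polg2-sg1 a deletion of 27 bp to the right with 1 bp of filler and a deletion of 29 bp with an overlap of 2 bp tied with 18 reads each. Each held between 8.67% and 48.5% of the long deletion reads of its library.

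Over time, the share of indel reads with a long deletion was compared in 20 pairs of libraries. It passed the test in 8 of them, 6 higher and 2 lower at the later time, and in 13 when counted as a share of all reads (two-sided Fisher's exact test, Benjamini-Hochberg adjusted over 6 indel classes by 20 pairs). Over all classes and pairs 54.2% passed, 29.2% higher and 25% lower, all as shares of indel reads. Shares of all reads include the amount of editing, and no count over all classes was made for them. The 13 therefore stands without a comparison.

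In the KO arm EGFP-sg1 and Kif11-sg1 passed. At EGFP-sg1 the long share was 0.615% (0.424 to 0.862), 1.81% (1.58 to 2.07) and 0.895% (0.738 to 1.07) at 1, 2 and 3 wpi, in 7, 16 and 15 alleles. It was higher at 2 than at 1 wpi (adjusted p = 4.5e-10, Fisher's exact test) and lower at 3 than at 2 wpi (adjusted p = 1.95e-09, Fisher's exact test), and 3 against 1 wpi did not pass. At Kif11-sg1 it was 1.49% (1.30 to 1.71) at 8 wpi against 1.08% (0.934 to 1.24) at 2 wpi (Fisher's exact test, adjusted p = 0.00283), a call that was lost with deletions of 15 bp or more (adjusted p = 0.231) or without filler deletions (adjusted p = 0.109).

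The other KO pairs did not pass. Kif11-sg2 had 2.24% at 8 wpi against 1.88% at 2 wpi, and Kif11-sg3 had 4.37% against 4.23%, with an interval of the difference of -0.922 to 1.19 points. Fah-sg1 had 1.26% at 3 wpi against 1.04% at 2 wpi and Fah-sg2 1.54% against 1.31%. All 5 of the Kif11 and Fah differences were above 0, and 1 passed the test. None of the 4 coinjection pairs of 3 against 2 wpi passed; the widest was Lats1-sg1, with 1.45% at 3 wpi against 2.08% at 2 wpi.

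In the PTG arm 3 of the 4 Lats sites held most of their long deletions at 6 wpi. At Lats2-sg1 they made up 1 of 1203, 10 of 2766 and 349 of 6155 indel reads at 2, 3 and 6 wpi, or 0.0831%, 0.362% and 5.67%, in 1, 1 and 26 alleles. At Lats1-sg2 they made up 1 of 665, 7 of 446 and 82 of 1760 indel reads, in 1, 6 and 48 alleles. By Fisher's exact test, the difference of 6 against 2 wpi was 5.59 points at Lats2-sg1 (4.91 to 6.20, adjusted p = 2.99e-25) and 4.51 points at Lats1-sg2 (3.38 to 5.603, adjusted p = 5.04e-10). The Lats1-sg2 value rested on many small alleles: the largest at 6 wpi held 5 reads, and without alleles under 10 reads the difference was 0. Lats1-sg2 also passed for 3 against 2 wpi, by 1.42 points on 7 reads against 1 (Fisher's exact test, adjusted p = 0.0202), a call that was lost with a limit of 15 bp (adjusted p = 0.455) or 30 bp (adjusted p = 0.418) and without single-read alleles (adjusted p = 0.218).

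Lats2-sg2 followed with fewer alleles. It had 18 of 1213, 0 of 2361 and 195 of 7072 indel reads at 2, 3 and 6 wpi, in 1, 0 and 15 alleles. All 18 reads at 2 wpi were 1 deletion of 62 bp that ran 75 bp to the right and carried 13 bp of filler, found in no other library. The drop at 3 wpi (Fisher's exact test, adjusted p = 1.46e-08) rested on that allele, and without the leading allele of each library the difference was 0. The difference of 6 against 2 wpi, 1.27 points (0.352 to 1.95, adjusted p = 0.0192 by Fisher's exact test), turned to -0.296 points (adjusted p = 0.5003) when deletions of 30 bp or more were counted, and it did not pass with 15 bp or more (0.247 points) or without alleles under 10 reads (0.829 points). Lats1-sg1 had 1.40%, 1.02% and 0.955% at 2, 3 and 6 wpi and passed the test at neither later time.

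**Figure D5:**
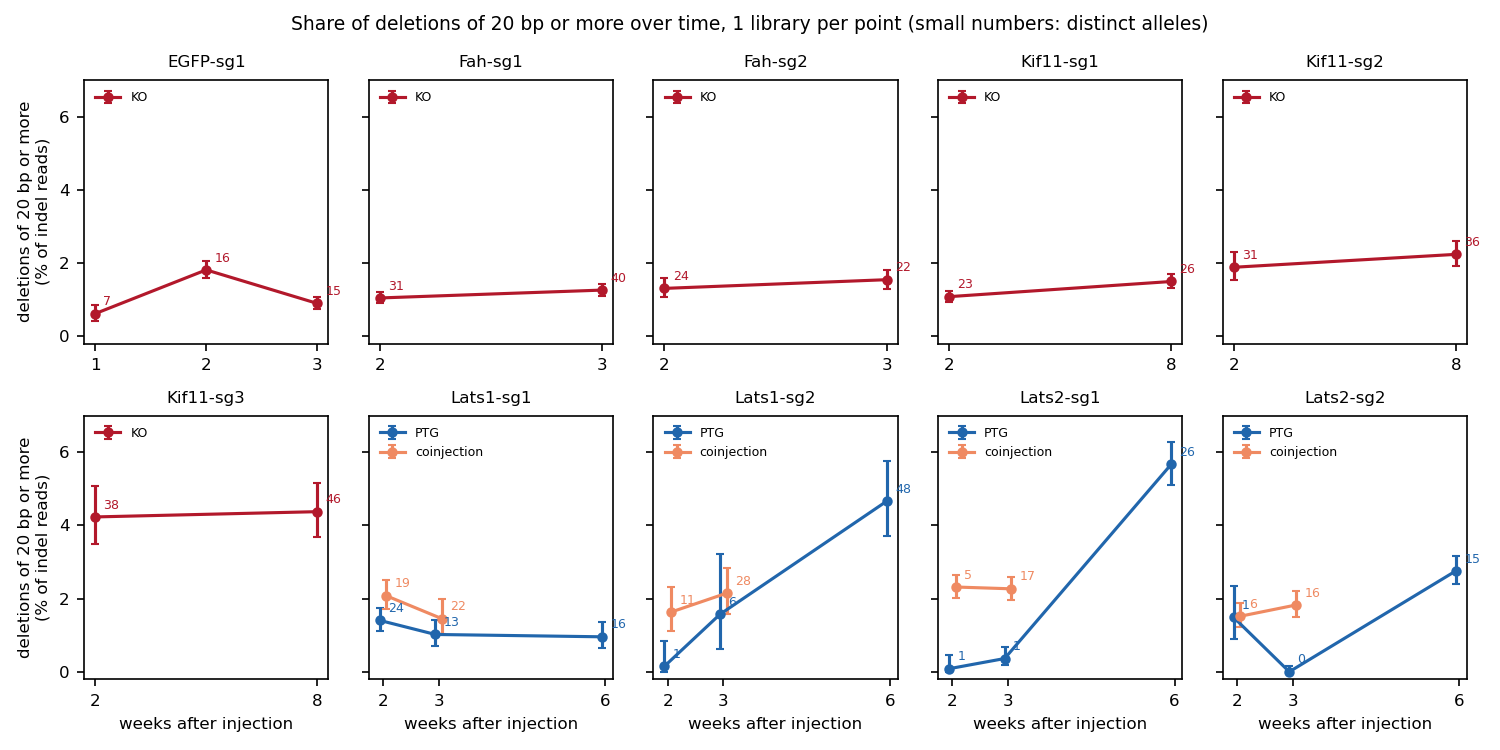
Share of indel reads with a deletion of 20 bp or more by weeks after injection at the 10 sites sequenced at several times, 1 library per point with exact 95% binomial intervals; small numbers give the distinct long alleles. PTG libraries of Lats1-sg2 and Lats2-sg1 reach 4.66% and 5.67% at 6 wpi, and the coinjection libraries lie between 1.45% and 2.32%.

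The amount of editing was higher at later times together with the long share at Lats2-sg1 and Lats1-sg2, and not at each time at the other Lats sites. Indel reads made up 5.79%, 11.8% and 24.4% of all reads at Lats2-sg1 in PTG at 2, 3 and 6 wpi, in 20, 38 and 102 indel alleles, and 9.65%, 15.5% and 26.2% at Lats1-sg2, in 45, 54 and 154 alleles. At Lats2-sg2 they made up 5.90%, 16.9% and 35.5%, while the long share was 1.48%, 0% and 2.76%. At Lats1-sg1, where the long share did not pass, they made up 55.2%, 63.7% and 43.7%. The part of editing level and of the number of sampled molecules in the result was not tested. As a share of the distinct indel alleles, long ones made up 5%, 2.63% and 25.5% at Lats2-sg1 and 2.22%, 11.1% and 31.2% at Lats1-sg2.

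Between arms, PTG libraries held fewer long deletions than coinjection libraries of the same site and time. The share of indel reads was lower in PTG in 8 of 8 pairs, and 5 passed the test, all lower (two-sided Fisher's exact test, Benjamini-Hochberg adjusted over 6 classes by 8 pairs), while 56.2% of all classes and pairs passed and 33.3% passed as lower. At Lats2-sg1, by Fisher's exact test, the share was 0.0831% in PTG against 2.32% in coinjection at 2 wpi (difference -2.23 points, -2.57 to -1.75, adjusted p = 9.2e-10) and 0.362% against 2.27% at 3 wpi (difference -1.90 points, adjusted p = 4.12e-13). At Lats2-sg2 it was 0 of 2361 in PTG against 109 of 5975 in coinjection at 3 wpi (Fisher's exact test, adjusted p = 2.72e-15). A count of 0 allows a share of up to 0.127%.

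The other pairs were closer. At Lats1-sg1 the share was 1.40% in PTG against 2.08% in coinjection at 2 wpi (adjusted p = 0.0171, Fisher's exact test; 0.101 without filler deletions), and 1.02% against 1.45% at 3 wpi, which did not pass. At Lats1-sg2 it was 0.150% against 1.63% at 2 wpi (Fisher's exact test, adjusted p = 0.00351), on 1 read in PTG against 30 in coinjection. It did not pass the exact test with deletions of 15 bp or more (adjusted p = 0.638) or 30 bp or more (adjusted p = 0.612), nor without alleles under 10 reads, where the difference was 0. At 3 wpi it was 1.57% against 2.15%. At Lats2-sg2 at 2 wpi the shares were 1.48% against 1.52%, with an interval of the difference of -0.679 to 0.862 points. With deletions of 30 bp or more the difference there was 1.10 points (Fisher's exact test, adjusted p = 0.000124), PTG being higher through its 1 allele of 62 bp.

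Here, too, the level of editing differed: at 2 wpi 5.79% of reads at Lats2-sg1 were indel reads in PTG against 39.4% in coinjection, and 5.90% against 39.8% at Lats2-sg2, whereas at Lats1-sg1 they were 55.2% against 51.0%. Its part in the result was not tested, and arm and animal cannot be told apart with 1 library each. The number of long alleles was low in both arms at Lats2-sg1 at 2 wpi, 1 in PTG against 5 in coinjection, although the coinjection library held 9026 indel reads. Apart from the leading deletion of 51 bp, that library had 72 reads of a deletion of 23 bp and 31 of 1 of 28 bp, neither found in any other library of the site.

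The amplicon called Tfam-sg2-3 gave mostly 1 kind of long deletion. Its EV label names the pair of guides sg2 and sg3 and its KO label sg2 alone, whereas the other 20 sites are named for 1 guide each. Whether its deletions lie between a pair of cuts was not tested. Of 15882 indel reads in the KO library at 2 wpi, 14880 or 93.7% (93.3 to 94.1) were deletions of 20 bp or more, in 120 alleles, against 20 of 23 indel reads in the EV library. Of all reads they made up 91.1% in KO and 0.104% in EV. They started at the cut in 95.9% of reads (nothing lost on the left) and ended 53 or 54 bp to the right in 95.1%. The leading alleles were deletions of 53 bp (8313 reads) and 54 bp (5327 reads) with no overlap and no filler, followed by 1 of 54 bp that took 1 bp on the left (226 reads).

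Its junctions were nearly all blunt. An overlap of 2 bp or more was seen in 1.08% of these reads (0.922 to 1.26) and filler in 2.12% (1.90 to 2.37), against 47.3% and 12.4% at the other 20 sites. This contrast sets an amplicon whose EV label names a pair of guides, with 1 KO library, against sites named for 1 guide each, and it was not tested. Deletions of other lengths, under 50 or over 60 bp, were 269 reads in 72 alleles, and among them 32.7% had such an overlap and 24.9% filler. The lengths ran from 21 to 114 bp, with room for 122 bp. The 20 EV reads fell into 3 alleles that the KO library also held: 11 reads of the 53 bp deletion, 8 of the 54 bp deletion and 1 of a 55 bp deletion. The source of these reads was not tested.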

How the data were processed

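Genomic DNA was amplified around each cut site and sequenced, per the labels' protocols. Without giving roles, the submitters' processing notes list deepTools, Bowtie2, bcl2fastq and R 4.2.1, and the build mm10. The authors deposited 67 tables with 1 line per read, holding template and read positions of both matches, the net length of the indel and the length of the microhomology in bp, per the file headers; 65 were used, and the 2 on a shorter Tfam-sg2 template were left out. These are positions and lengths, not normalised values. For the tool that placed the junctions, the sources used here name none.

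The cut was the highest left-match position of a table. Left reach is the cut minus that position. Right reach is the right-match position minus the cut, since it equals the cut in unedited reads; the planned subtraction of 1 more was dropped. Filler is a gap between the matches in the read. The overlap was added to what defines an allele, which split 20 of 973. Bases are not in the tables, so no sequence is printed. Gene positions are RefSeq's for GRCm38.p6 (mm10); 8 of 9 targets matched by symbol.

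Shares were compared by Fisher's exact test with Benjamini-Hochberg adjustment, and classes within libraries by exact sign-flip tests over targets, at 0.05; the labels do not say whether targets share animals. Both were tried on simulated data in which reads, or target values, were independent. That does not cover reads that are copies of 1 allele. Libraries with under 20 reads of either class were left out of the sign-flip tests within libraries (Polg2-sg3 and Tfam-sg1). Members and lists were chosen with earlier results of these data known. Alleles were named where they led the earliest sgRNA library of a site with 10 reads or more; other named alleles were chosen after their values were seen. Alternatives moved the length limit, left out rare, leading or filler alleles, changed the unit or minimum, or left out targets. Tests ran in scipy 1.17.1 and statsmodels 0.14.6 under Python 3.11.15, tables in pandas 2.3.3 with numpy 2.4.6, and plots in matplotlib 3.10.9.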

Additional observations from a re-analysis of the deposited data

Results flagged for a closer look

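The change of the long-deletion share of indel reads between 2 and 3 wpi differed between the arms at Lats2-sg2: it was -1.48 points in PTG and 0.306 points in coinjection, a difference of -1.79 points (-2.76 to -1.06, combined Newcombe intervals, counting error only, 4 sites compared). The PTG change rested on 18 reads of 1 deletion of 62 bp at 2 wpi. At the other 3 Lats sites the interval of this difference held 0.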

How the results depend on the processing

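No paired analysis was possible because each group holds 1 library, so replicate numbers pair nothing; the tests over targets set classes of 1 library, or the sgRNA and EV libraries of 1 site, side by side. The median share of 1.57% at 2 wpi moved to 2.12% with a limit of 15 bp and 0.571% with 30 bp. It moved to 0.290% without alleles under 10 reads, 1.21% without each leading allele and 4.90% of indel reads other than 1 bp indels. Such moves were judged by the counting interval of the 1 library nearest the median, as the median has no interval of its own. Under the other 3 alternatives the median stayed within that interval. Counted as a share of all reads, 13 in place of 8 time comparisons passed, with no count over all classes to set beside it. At Lats2-sg2, deletions of 30 bp or more turned the difference of 6 against 2 wpi in PTG to -0.296 points and that of PTG against coinjection at 2 wpi to 1.10 points. The filler difference passed the test with alleles counted once (-28.9 points), a limit of 30 bp (-15.6 points) or short deletions of 5 to 19 bp (-14.1 points), and ran from -12.02 to -3.23 points with 1 target left out. The left minus right reach, which passed under none, turned to 1.69 bp at 30 bp or more and to 1.60 bp over sites with room for 50 bp, and ran from -1.67 to 0.505 bp with 1 target left out. The overlap difference passed under all 19 alternatives (18.3 to 30.4 points with 1 target left out), as did sgRNA minus EV under all 18 (0.991 to 1.20 points). The cause of these moves was not tested. Alternatives on room, pairs of libraries with several long alleles, overlaps of 8 bp, split overlaps and reach classes were chosen after seeing the data. Splitting overlaps evenly adds the same to both sides, so it could not change the left minus right reach and is no check of it. Reach classes dropped short deletions with under 2 bases lost, so they are no independent check of the overlap difference. The deposited length bounds the overlap, so passing these tests does not show how much of the overlap difference the classes set. Read length limits deletions over 23 to 100 bp by site, and PTG libraries at 2 wpi hold 665 to 5415 indel reads.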

Other observations

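The longest deletion of the single sites, 155 bp, was read 2 times in the PTG library of Lats1-sg2 at 6 wpi, where read lengths left room for 89 bp. It reached 16 bp left and 135 bp right of the cut with an overlap of 4 bp, and its right match ended at template position 478, against 374 in unedited reads. It was the only long deletion beyond the room of its library among 43 sgRNA libraries.

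Lengths divisible by 3 made up 37.7% of long deletion reads (303 of 869 alleles, or 34.9%), against 21.1% of short deletion reads. At Tfam-sg2-3 they made up 38.8%, mostly the deletion of 54 bp. Whether the cuts lie in coding sequence was not analysed here.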
